A study of Mus musculus with 8 samples.

Results

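Aquaporins are membrane channels through which water, and for some members glycerol or other small solutes, crosses cells along osmotic gradients. Each channel carries a pair of short pore boxes, usually the amino acids Asn-Pro-Ala (NPA), that line the narrow part of the pore. In the cochlea, where the fluids on either side of the sensory epithelium differ in ion content, *Aqp4* is known as a water channel of supporting and sulcus epithelium and of glia. *Aqp1* is known from fibrocytes, small vessels and red blood cells, and *Aqp11* encodes an atypical channel that resides mainly inside the cell. The 10 aquaporin genes described here are *Aqp1* to *Aqp9* and *Aqp11*, taken by symbol from the 36536 genes of each count file. The set was chosen by the measured levels of *Aqp4*, whose GFP+ to GFP- ratio differed widely between postnatal day 1 (P1) and day 6 (P6), so every value of *Aqp4* is given as a description, with no test. The rule set no threshold on any value, and all 10 genes are accounted for. *Mip* and *Aqp12*, the other 2 aquaporin genes with a row in the files, are given for comparison.

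RNA was sequenced from cells sorted from freshly dissected, untreated cochleas of LFng-GFP mice (B6;FVB-Tg(Lfng-EGFP)HM340Gsat/Mmucd), which carry an EGFP reporter under control of *Lfng* on a bacterial artificial chromosome. All 4 groups carry the transgene: GFP+ at P1, GFP- at P1, GFP+ at P6 and GFP- at P6, with 2 libraries each. GFP+ cells were the brightest fraction, in which the reporter marks most supporting cell types but not inner pillar cells, and weakly fluorescent cells were in neither fraction. Each library pooled cells of many cochleas. The dissection differed with age, since the duct was freed of Reissner's membrane, stria vascularis and lateral wall at P1, whereas at P6 these were cut away only in part, so age and dissection cannot be told apart. The labels do not say that replicates came from separate sorts, so p-values measure the spread between these libraries. In these mixed fractions, fewer cells of a type and less RNA per cell cannot be told apart.

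The libraries held 17769024 to 67695039 counts on genes. Summed levels of 6 supporting cell markers, all detected, were 4209 to 6758 CPM (counts per 1000000 counts on genes of the library) in GFP+ libraries. In GFP- libraries they were 100.2 to 159.7, as the labels imply. The sum of 6 hair cell markers was also higher in GFP+ cells (173.1 to 310.0 against 29.7 to 54.6). This was mostly through *Otof* and *Myo7a* at P1 and mostly through *Otof* at P6. *Tmc1* was higher in GFP+ cells at P6 (19.9 and 14.0 CPM against 2.43 and 2.925). *Slc17a8* overlapped between the fractions at P6, and at P1 neither it nor *Tmc1* was higher in the GFP+ fraction. P6 GFP+ replicate 2 stood apart. Over the 773 genes at least 16-fold lower in GFP+ than in GFP- cells at P1, its median log2 difference from replicate 1 was 1.00, whereas the P1 GFP+ replicates differed by a median of 0. Most aquaporin results and the list calls that use this library are given with and without it. Without it 1 P6 GFP+ library remains, which shows no spread, so those values are given without p-values.

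The coding sequence of the pore boxes shows how the genes with the most transcript differ. The runs below were read 5′ to 3′ from the annotated NCBIM37 (mm9) mouse transcripts, with the codons of the box in capitals. *Aqp1* and *Aqp11* are shown because they dominate GFP- and GFP+ cells respectively, and *Aqp5* as a typical member at a low level in all groups.
Aqp1, first box, NPA, from codon 76 of 269: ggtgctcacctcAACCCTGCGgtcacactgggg
Aqp5, first box, NPA, from codon 69 of 265: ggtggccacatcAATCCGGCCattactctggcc
Aqp11, first box, NPC, from codon 99 of 271: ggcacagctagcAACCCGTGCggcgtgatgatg
Aqp11, second box, NPA, from codon 216 of 271: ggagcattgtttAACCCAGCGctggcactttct
The first box of *Aqp11* ends in a cysteine codon where those of *Aqp1* and *Aqp5* end in an alanine codon, while its second box is NPA. *Aqp1* lies on chromosome 6 from 55286426 to 55298549 and *Aqp11* on chromosome 7 from 104874889 to 104886757. *Aqp5* (chromosome 15, 99421280 to 99425260) lies between *Aqp2*, which ends at 99414976, and *Aqp6*, which starts at 99431831. No other annotated gene overlaps any of the 10 genes.

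GFP+ and GFP- cells differed in which aquaporin made up most of the transcript. To compare genes, the CPM were divided by the exon length in kilobases. On this per-length scale *Aqp11* made up 92.3% and 91.0% of the summed level of the 10 genes in GFP+ replicates 1 and 2 at P1, and 86.4% and 64.8% at P6. In GFP- cells *Aqp1* made up 95.8% and 92.6% at P1, and 93.2% in each library at P6. The share of *Aqp4* was 3.4% and 3.52% in GFP+ cells at P1 and 1.98% and 2.81% at P6. In GFP- cells it was 0.0390% and 0.0951% at P1 and 0.770% and 0.790% at P6. *Aqp4* was therefore a small part of the aquaporin transcript in every library, also where it was most enriched.

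**Figure D1:**
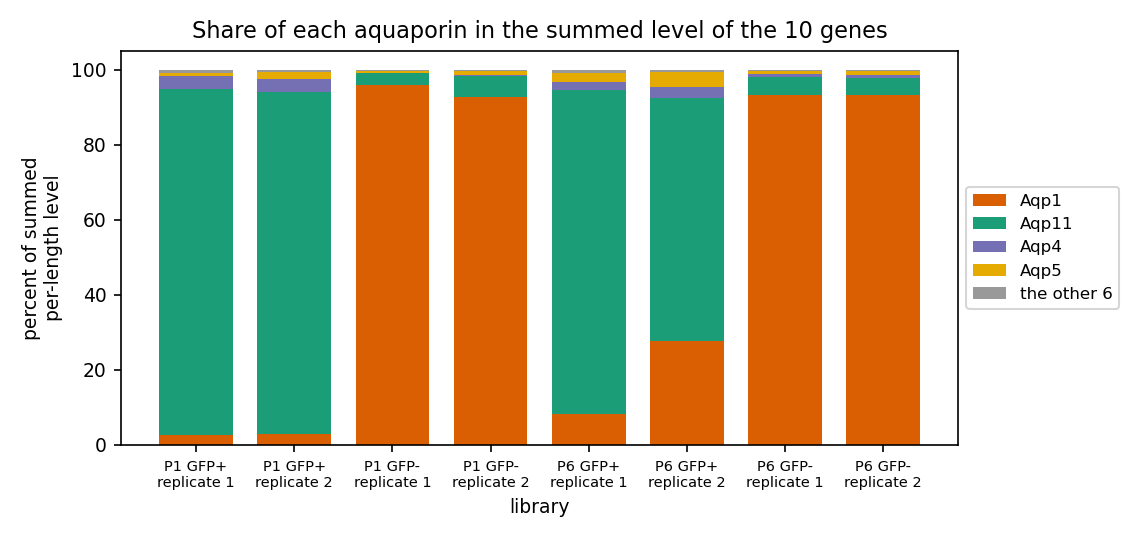
Percent of the summed per-length level (CPM per kilobase of exon) of the 10 aquaporin genes held by each gene, 1 stacked bar per library. *Aqp11* holds 64.8% to 92.3% of the GFP+ bars and *Aqp1* 92.6% to 95.8% of the GFP- bars.

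The order of the per-length levels in P1 GFP+ cells was *Aqp11* (88.6 ± 4.01, SD, n = 2), *Aqp4* (3.35 ± 0.266), *Aqp1* (2.68 ± 0.451), *Aqp5* (1.31 ± 0.669) and *Aqp8* (0.468 ± 0.121), and no neighbours among these overlapped in their libraries. In P6 GFP+ cells it was *Aqp11* (69.7 ± 11.0), *Aqp1* (16.9 ± 13.4), *Aqp5* (3.14 ± 1.24) and *Aqp4* (2.23 ± 0.635), and the libraries of *Aqp5* and *Aqp4* overlapped. The leading genes of GFP- cells were the same at both ages, with *Aqp1* at 144.6 ± 19.8 at P1 and 158.2 ± 26.1 at P6, *Aqp11* at 6.77 ± 1.98 and 7.88 ± 1.64, and *Aqp5* at 1.41 ± 0.476 and 1.83 ± 0.0173. *Aqp4* was the sixth of the 10 genes in P1 GFP- cells (0.0994 ± 0.0492), overlapping *Aqp7* above it, and the fourth in P6 GFP- cells (1.32 ± 0.194), overlapping neither neighbour. *Aqp2*, *Aqp3*, *Aqp6*, *Aqp7* and *Aqp9* stayed below 0.2 on this scale in every group mean, and many of their neighbours in the order overlapped.

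**Figure D2:**
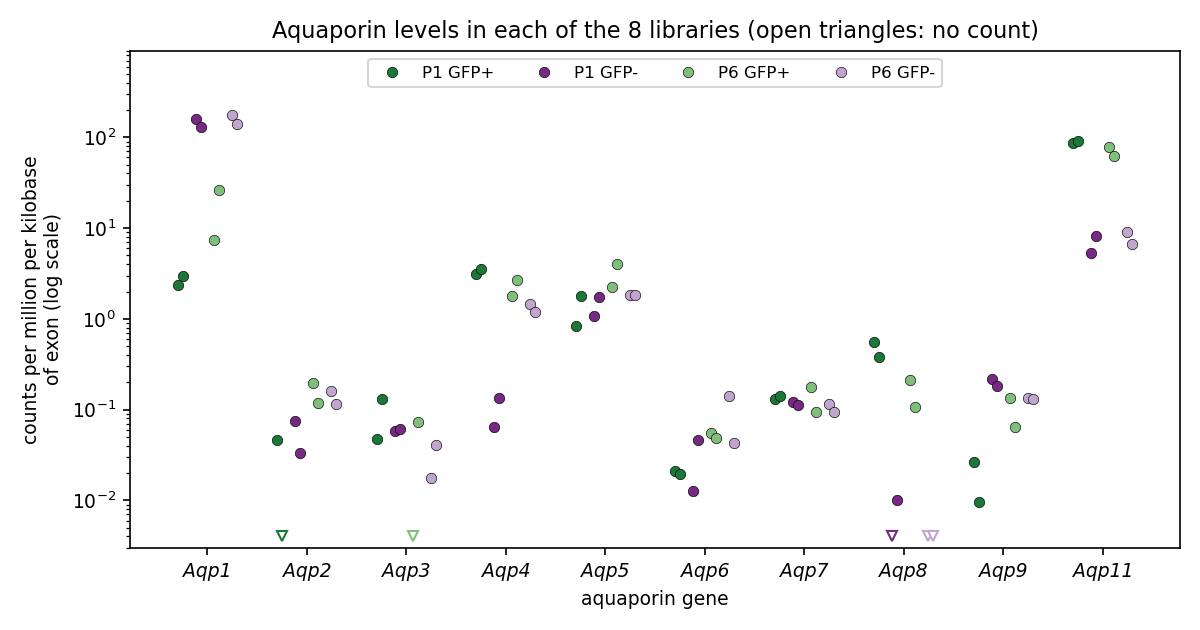
Level of each aquaporin in every library, in CPM per kilobase of exon on a log scale, colored by group, with open triangles at the bottom for libraries without a count. *Aqp1* and *Aqp11* are the highest genes, *Aqp4* is low in P1 GFP- cells alone, and *Aqp8* has no count in 3 of the 4 GFP- libraries.

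*Aqp4*, whose ratio chose these genes, was at 16.8 and 18.8 CPM in GFP+ cells of P1 and at 0.343 and 0.713 CPM in GFP- cells of that age. At P6 it was at 9.46 and 14.2 in GFP+ cells and at 7.75 and 6.29 in GFP- cells. All GFP+ libraries lay above all GFP- libraries at both ages, with a narrow gap at P6. The values rest on 770 and 468 counts in P1 GFP+ cells, 13 and 45 in P1 GFP- cells, then 168 and 425 in P6 GFP+ cells, and 478 and 426 in P6 GFP- cells. The GFP+ mean was 33.7-fold the GFP- mean at P1 and 1.69-fold at P6. In P6 GFP+ replicate 1 alone the ratio to the GFP- mean was 1.35, and in replicate 2 alone it was 2.03. The log2 ratio of means was thus 4.32 smaller at P6 than at P1. Of this, the higher level in GFP- cells at P6 (13.3-fold, 3.73 on the log2 scale) made up most, and the level in GFP+ cells was 1.5-fold lower at P6. With library scaling by the trimmed mean of M values (TMM, which sets most genes to no change) the log2 ratio was 5.10 at P1 and 0.75 at P6. Without P1 GFP- replicate 1 or replicate 2 the P1 value was 4.71 or 5.77, so its size depends on the small counts in those 2 libraries.

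The supporting cell marker sum of GFP- libraries was 2.01% of the GFP+ mean at P1 and 2.92% at P6, while *Aqp4* was at 2.97% and 59.3%. *Lfng*, whose reporter defined the sort, and *Fgfr3* made up most of the GFP+ sum. *Sox2* in GFP- cells was at 20.2 and 35.6 CPM at P1 and 41.2 and 34.7 at P6. In GFP+ cells it was at 588.9 and 616.3, then 360.5 and 283.3. *Prox1* was at 7.47 and 18.8, then 3.6 and 2.9 in GFP- cells, and at 563.5 and 520.3, then 81.4 and 132.7 in GFP+ cells. Other marker sums of the GFP- libraries differed between the ages too. The 3 outer sulcus and root cell markers summed to 205.6 to 564.6 CPM at P1 and 695.0 to 820.5 at P6, and the 4 Schwann cell and glia markers to 558.9 to 616.4 and 1014 to 1230. The 4 astrocyte markers summed to 381.5 to 568.1 and 583.7 to 607.8, and the 4 neuron markers to 135.8 to 456.3 and 68.7 to 100.7. Within the astrocyte list *S100b* went from 32.5 and 46.8 to 262.5 and 223.5 CPM, while *Slc1a2* (529.8 and 329.4, then 340.2 and 354.3), *Gfap* (4.25 and 3.04, then 3.31 and 4.28) and *Aldh1l1* (1.61 and 2.19, then 1.78 and 1.55) overlapped between the ages. All markers of these lists were detected in every GFP- library. Their part in the *Aqp4* level was not tested.

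**Figure D3:**
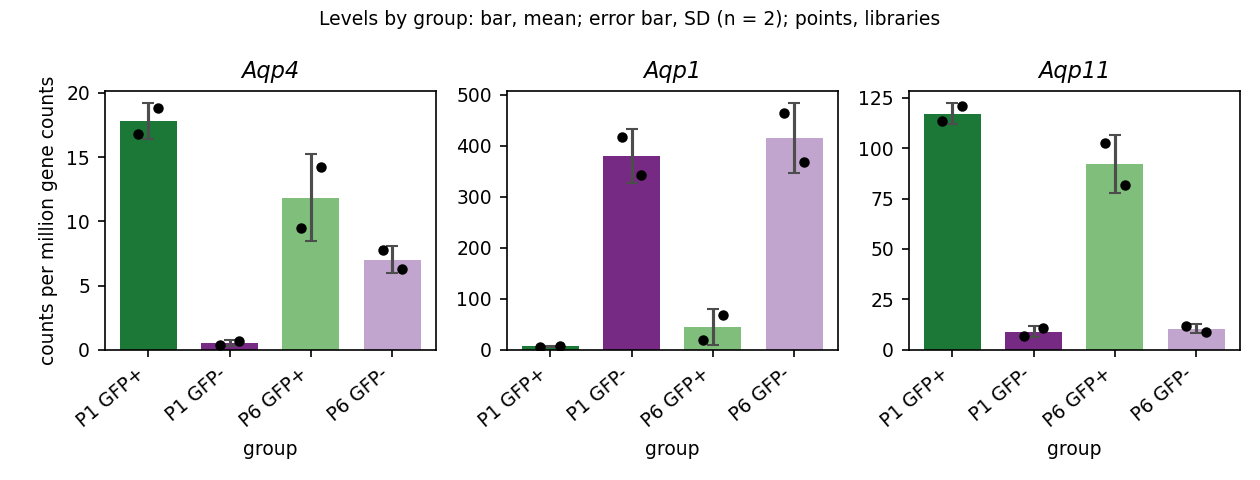
Levels of *Aqp4*, *Aqp1* and *Aqp11* in CPM by group, with bars for means, error bars for SD (n = 2) and points for libraries. *Aqp4* in GFP- cells goes from a mean of 0.528 at P1 to 7.02 at P6, while *Aqp1* stays high in GFP- cells and *Aqp11* in GFP+ cells at both ages.

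The other 9 aquaporins were tested in a quasi-likelihood fit with edgeR of all genes that passed a filter on low counts, and a gene was called at an adjusted p below 0.01 (Benjamini-Hochberg over all genes tested). At P1, 6 of the 9 passed the filter. *Aqp8* and *Aqp11* were called higher in GFP+ cells, and *Aqp1* and *Aqp9* lower. Of these 4 calls, those of *Aqp8* and *Aqp9* are of genes that passed the filter only through the fraction in which they were high, which had to differ. Of all 18682 genes tested, 16.6% were called higher and 20.7% lower. At P6, 6 passed the filter, *Aqp11* was called higher and none lower, against 7.72% and 5.19% of 18294 genes. The share of calls that were higher in GFP+ cells at P6 moved from 59.8% to 71.4% with library totals in place of TMM scaling. At P6 2 members were below an unadjusted p of 0.05 and DESeq2 called 2. At each age 3 members were too low to test, so these counts describe the tested members alone.

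*Aqp11* was the aquaporin most clearly tied to GFP+ cells at both ages. It was at 113.4 and 120.9 CPM in P1 GFP+ cells, 7.10 and 10.8 in P1 GFP- cells, then 102.4 and 81.8 in P6 GFP+ cells, and 11.95 and 8.88 in P6 GFP- cells. No GFP+ library overlapped a GFP- library. The log2 fold change was 3.80 ± 0.20 (SE) at P1 (edgeR adjusted p = 4.31e-05) and 3.14 ± 0.24 at P6 (edgeR adjusted p = 0.00121). The P6 call was lost without P6 GFP- replicate 2 (log2 fold change 2.92), in a fit that left 1 library in that group. Without P6 GFP+ replicate 2 the P6 value was 3.32. The difference between the ages in the log2 fold change was 0.68 ± 0.34 and was not called (edgeR adjusted p = 0.301).

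*Aqp1* had the opposite distribution. It was at 6.20 and 7.87 CPM in P1 GFP+ cells and at 416.8 and 343.1 in P1 GFP- cells. At P6 it was at 19.4 and 69.2 in GFP+ cells and at 463.9 and 367.1 in GFP- cells. The fractions were far apart at both ages, but the P6 GFP+ replicates differed 3.56-fold from each other. At P1 the log2 fold change was -5.67 ± 0.17 (edgeR adjusted p = 1.11e-05). At P6 it was -3.24 ± 0.59 and narrowly missed the threshold (edgeR adjusted p = 0.0121). Without P6 GFP+ replicate 2 it was -4.40, and DESeq2 on the full set of P6 libraries gave -3.23 (DESeq2 adjusted p = 2.11e-08).

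The level of *Aqp1* in GFP+ libraries was 1.63% and 2.07% of the GFP- mean at P1 and 4.67% and 16.7% at P6. The 5 markers of otic fibrocytes and mesenchyme, all detected in every library, summed to 1.59% and 1.74% of their GFP- mean in GFP+ replicates 1 and 2 at P1 and to 4.51% and 15.8% at P6. For 3 melanocyte markers the shares were 0.298% and 0.849% at P1, where *Mlana* had no count, and 4.51% and 14.4% at P6. For 5 red blood cell markers they were 2.39% and 4.85%, then 5.59% and 20.1%, and for 5 endothelial markers 7.66% and 6.62%, then 17.2% and 69.7%. *Emcn* made up most of the endothelial sum in GFP- cells. In P6 GFP+ replicate 2 it was at 52.4 CPM, against 206.2 and 213.3 in P6 GFP- cells. *Pecam1* (32.9 against 13.6 and 12.8) and *Cdh5* (52.4 against 28.6 and 24.4) were instead above GFP- cells there. So were *Kdr* (55.3 against 48.8 and 44.5) and *Tek* (27.8 against 20.6 and 21.45). P6 GFP+ replicate 2 was also high in the 4 Schwann cell and glia markers (169.5% of the GFP- mean) and in 3 stria marginal cell markers (364.0%). *Aqp1* and these 6 lists were all higher in P6 GFP+ replicate 2 than in replicate 1. Their part in the *Aqp1* level was not tested.

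**Figure D4:**
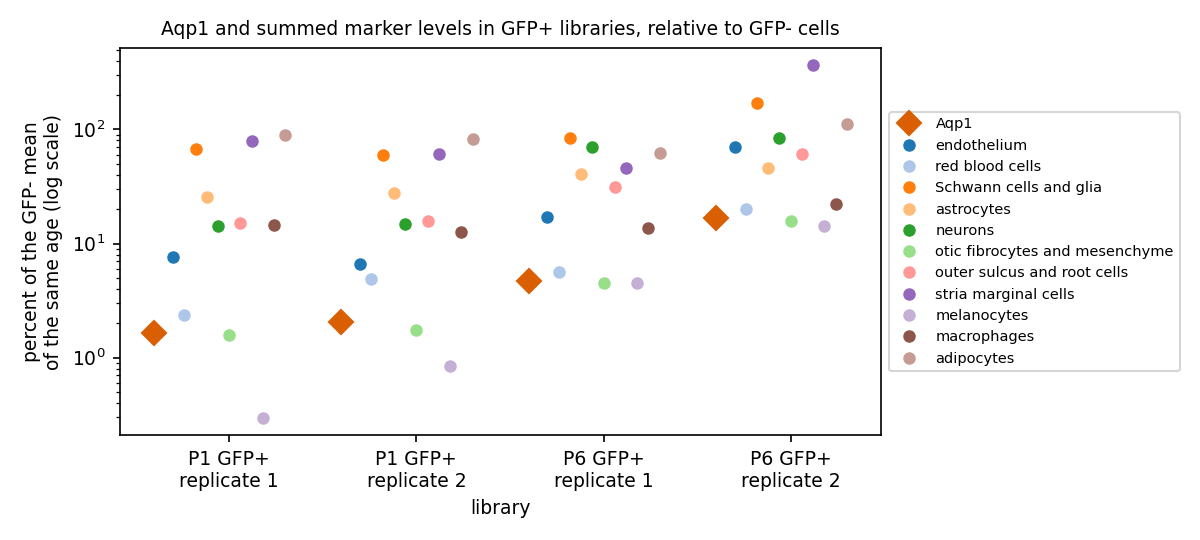
Level of *Aqp1* and summed levels of 11 marker lists in each GFP+ library, as a percent of the GFP- mean of the same age, on a log scale. *Aqp1* (1.63% to 16.7%) lies close to the fibrocyte and mesenchyme list (1.59% to 15.8%) in all 4 libraries, and all the lists are higher in P6 GFP+ replicate 2 than in replicate 1.

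*Aqp8*, a channel for water and also ammonia, was rare but nearly absent outside the GFP+ fraction. It had 40 and 15 counts in P1 GFP+ cells, 0 and 1 in P1 GFP- cells, then 6 and 5 in P6 GFP+ cells, and 0 and 0 in P6 GFP- cells. Every GFP+ library had counts, and 1 of the 4 GFP- libraries had a single count. At P1 the ratio of pooled counts, each relative to its library totals, was 78.5 with an exact 95% interval of 13.5 to 3158 that covers counting error only. The gene passed the low-count filter through its GFP+ libraries alone, so its direction was fixed by the filter and the call adds nothing to these counts. At P6 the ratio was 9.96 with 3 counts over both GFP- libraries taken as the limit that a count of 0 allows. That value leaves out the counting error of the GFP+ counts, and the gene was too low to test.

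*Aqp9*, which also passes glycerol and other neutral solutes, had 5 and 1 counts in P1 GFP+ cells, 34 and 47 in P1 GFP- cells, then 10 and 8 in P6 GFP+ cells, and 34 and 37 in P6 GFP- cells. In CPM these were 0.109 and 0.0402, 0.897 and 0.745, 0.563 and 0.268, and 0.551 and 0.547, so the fractions were separate at P1 and overlapped at P6. At P1 the log2 fold change was -3.14 ± 0.54, and since the gene passed the filter there through its GFP- libraries alone, its direction was fixed by the filter and the call adds nothing to the counts. At P6 it was -0.48 ± 0.52 (edgeR adjusted p = 0.519), and 0.06 without P6 GFP+ replicate 2. The difference of these was not called (-2.65 ± 0.79, edgeR adjusted p = 0.0922). Leaving out P1 GFP+ replicate 1 ended the P1 calls of *Aqp8* and *Aqp9*, and leaving out P1 GFP+ replicate 2 ended that of *Aqp9*.

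*Aqp5*, a water channel of secretory glands known also from outer sulcus cells, was present in both fractions. It was at 1.4 and 2.97 CPM in P1 GFP+ cells, 1.795 and 2.92 in P1 GFP- cells, then 3.77 and 6.70 in P6 GFP+ cells, and 3.03 and 3.07 in P6 GFP- cells. The fractions overlapped at P1 and did not at P6. The log2 fold change was -0.05 ± 0.43 at P1 (edgeR adjusted p = 0.928), with a sign that turned without P1 GFP+ replicate 1 (0.41) or P1 GFP- replicate 2 (0.30). At P6 it was 0.78 ± 0.35 and was not called (edgeR adjusted p = 0.140). It was 0.32 without P6 GFP+ replicate 2 and 1.16 without P6 GFP+ replicate 1, so that the size rests on replicate 2. In that library the outer sulcus and root cell markers were at 61.3% of their GFP- mean, against 31.4% in replicate 1, and their part in the *Aqp5* level was not tested.

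*Aqp7*, the glycerol channel known best from fat cells, had 8 to 20 counts in every library. Its log2 fold change was 0.33 ± 0.40 at P1 (edgeR adjusted p = 0.523) and 0.32 ± 0.54 at P6 (edgeR adjusted p = 0.682). The P6 value was 0.80 without P6 GFP+ replicate 2. The 3 adipocyte markers together reached at most 0.148 CPM in any library. *Aqp2*, the vasopressin-regulated channel of the kidney collecting duct, had 0 to 5 counts in each GFP+ library, 3 and 4 in P1 GFP- libraries, and 11 and 14 in P6 GFP- libraries. It was testable at P6, with a log2 fold change of 0.13 ± 0.59 (edgeR adjusted p = 0.892), or 0.55 without P6 GFP+ replicate 2. *Aqp3*, an aquaglyceroporin of epithelia, had 0 to 7 counts in every library and *Aqp6*, an intracellular channel with anion conductance, had 1 to 18, and neither was tested. Of the other aquaporins, *Mip*, the lens channel, had 1 to 18 counts, and 1 annotated gene overlaps it. *Aqp12*, known from the pancreas, had 1 and 13 counts in P1 GFP+ cells, 2 and 0 in P1 GFP- cells, then 4 and 1 in P6 GFP+ cells, and 0 and 0 in P6 GFP- cells, so that a single library held most of its counts.

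**Figure D5:**
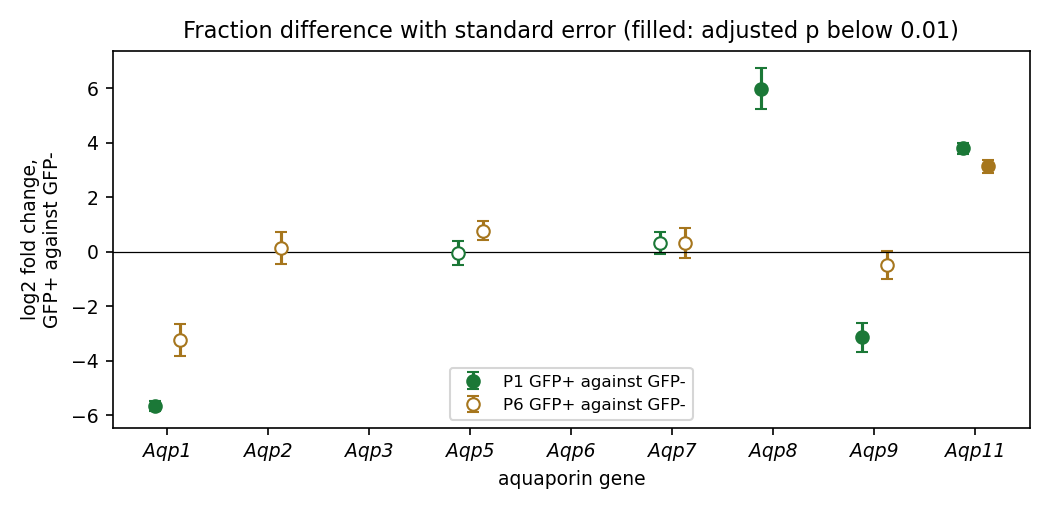
Log2 fold change of GFP+ against GFP- cells at P1 and P6 for the aquaporins other than *Aqp4* that could be tested, with standard error bars, filled where the edgeR adjusted p was below 0.01. *Aqp11* is filled on the positive side at both ages, and *Aqp1* is at -5.67 at P1 and -3.24 at P6, where its symbol is open, while *Aqp8* and *Aqp9* at P1 passed the filter through 1 fraction only.

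Within a fraction, none of the tested aquaporins other than *Aqp4* was called between P6 and P1. In GFP+ cells edgeR called 0 of 5 tested, against 2.86% of all genes higher and 1.95% lower at P6, while 3 were below an unadjusted p of 0.05 and DESeq2 called 1. These 3 were *Aqp1* (log2 fold change 2.75 ± 0.60, edgeR adjusted p = 0.0343), *Aqp5* (1.38 ± 0.48, edgeR adjusted p = 0.0991) and *Aqp8* (-1.55 ± 0.55, edgeR adjusted p = 0.104). Of these, *Aqp8* passed the filter only through its P1 libraries, so its direction was fixed by the filter and its p-value adds nothing to its counts. Without P6 GFP+ replicate 2 *Aqp1* was at 1.61, *Aqp5* at 0.99 and *Aqp8* at -1.04. *Aqp11* was at -0.25 ± 0.16 (edgeR adjusted p = 0.297), and at -0.07 without that library. In GFP- cells edgeR called 0 of 6, against 5.04% higher and 2.34% lower, with 0 below an unadjusted p of 0.05 and 0 called by DESeq2. *Aqp1* was at 0.32 ± 0.17 (edgeR adjusted p = 0.236) and *Aqp11* at 0.41 ± 0.26 (edgeR adjusted p = 0.316). With library totals in place of TMM the median log2 fold change of all genes in GFP- cells moved from -0.02 to -0.21, and the share of called genes that were higher at P6 from 68.3% to 49.5%.

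Whether the fraction ratio itself differed with age was tested by an interaction term in a fit of all 8 libraries, with positive values for a GFP+ to GFP- ratio higher at P1. Of the 9 aquaporins other than *Aqp4*, 6 were tested and 0 called, against 0.988% of 19233 genes called with a ratio higher at P1 and 0.946% higher at P6. An unadjusted p below 0.05 was reached by 2. These were *Aqp1* (-2.40 ± 0.67, edgeR adjusted p = 0.0762, and -1.24 without P6 GFP+ replicate 2) and *Aqp9* (-3.18 without that library). DESeq2 called 1, *Aqp1* (-2.41, DESeq2 adjusted p = 0.00218). The fitted value of *Aqp4* was 4.38. Library totals moved the median of all genes from -0.03 to -0.16 and the share of calls with a ratio higher at P1 from 51.1% to 39.8%.

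The genes whose pattern over the 8 libraries was most like that of *Aqp4*, among 19232 genes, were *Myo1e* (Pearson r = 0.985), *Bcar3* (0.982), *Glt25d2* (0.980), *Usp2* (0.979) and *Glb1l2* (0.976). These values, of log2(CPM + 0.5), describe libraries that share 4 groups. *Bcar3*, an adaptor protein, was at 104.3 in each P1 GFP+ library, 9.32 and 10.4 in P1 GFP- cells, then 68.1 and 63.4 in P6 GFP+ cells, and 38.1 and 36.3 in P6 GFP- cells. *Glb1l2*, a galactosidase-like gene, was at 80.5 and 73.8, 8.39 and 12, 38.9 and 42.5, and 35.7 and 28.3 in the same order. *Myo1e*, an unconventional myosin, was at 169.1 and 170.3, 38.3 and 48.6, 115.4 and 138.0, and 92.2 and 87.2. The fractions stood closer at P6 than at P1 in all 3, which follows from choosing them for their likeness to *Aqp4*. Among the aquaporins the correlation with *Aqp4* was 0.79 for *Aqp11* and 0.68 for *Aqp8*, and -0.71 for *Aqp1* and -0.84 for *Aqp9*. It was 0.29 for *Aqp5*, 0.20 for *Aqp7* and -0.15 for *Mip*.

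*Aqp4* protein is anchored in the membrane by the dystrophin complex, and 15 genes of that complex and its partners were counted. At P1, 14 were tested, 4 were called higher in GFP+ cells and 6 lower, where 16.6% and 20.7% of all genes were, with a median log2 fold change of -0.21 against 0.01 over all genes. At P6, 15 were tested, 0 were called higher and 1 lower, where 7.72% and 5.19% of all genes were, with a median of -0.41 against -0.02. *Dtna* (alpha-dystrobrevin) was at 153.7 ± 3.26 CPM (SD, n = 2) in P1 GFP+ cells, 29.7 ± 7.37 in P1 GFP- cells, 46.3 ± 7.06 in P6 GFP+ cells and 27.6 ± 3.51 in P6 GFP- cells. Its log2 fold change was 2.47 ± 0.17 at P1 (edgeR adjusted p = 0.00011) and 0.74 ± 0.18 at P6 (edgeR adjusted p = 0.0287), and the difference of these was called (1.75 ± 0.26, edgeR adjusted p = 0.00856). It fell in GFP+ cells from P1 to P6 by 1.64 on the log2 scale (edgeR adjusted p = 0.00362), and by 1.77 without P6 GFP+ replicate 2. *Agrn* (agrin, a ligand of dystroglycan) was at 1747 ± 90.5, 1305 ± 59.6, 586.3 ± 154.0 and 1351 ± 13.3 in the same order, and its ratio also differed between the ages (1.75 ± 0.27, edgeR adjusted p = 0.00971). These were the 2 of 15 called in the interaction, both with a ratio higher at P1, as had 0.988% of all genes (0.946% with a ratio higher at P6), and the list's median there was 0.20 against -0.03. Both calls were close to the threshold and were lost in 8 of 13 alternatives, among them library totals and every fit that left out a P1 library or a P6 GFP- library, with log2 values of 1.48 to 1.94 for *Dtna* and 1.54 to 2.02 for *Agrn*. Without P6 GFP+ replicate 2 they were 1.88 and 2.02.

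Other genes of the anchoring list were unequal in direction. *Sspn* (sarcospan) was lower in GFP+ cells at P1 (log2 fold change -3.70, edgeR adjusted p = 2.11e-05) and rose in GFP- cells from P1 to P6 (1.04, edgeR adjusted p = 0.00583). The syntrophin *Sntb1* was higher in GFP+ cells at P1 (1.14, edgeR adjusted p = 0.00021), and the syntrophin *Sntb2* lower (-1.13, edgeR adjusted p = 0.0023). *Sgce* (epsilon-sarcoglycan) was lower at P1 (-1.34, edgeR adjusted p = 0.000844) and at P6 (-1.78, edgeR adjusted p = 0.00406, and -2.04 without P6 GFP+ replicate 2). In GFP+ cells between the ages *Dtna* was the only call of 14 tested (2.86% of all genes were called higher and 1.95% lower), and in GFP- cells *Sspn* that of 15 (5.04% and 2.34%). The list's median was 0.18 in GFP+ cells and 0.24 in GFP- cells for P6 against P1, where the median of all genes was 0.00 and -0.02.

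Genes of cell volume control and osmosensing, 10 in the list and all tested, had 3 called higher and 2 lower in GFP+ cells at P1 (16.6% and 20.7% of all genes, list median log2 fold change 0.09) and 2 higher and 0 lower at P6 (7.72% and 5.19% of all genes, list median -0.19). *Trpv4*, an osmosensitive cation channel, was higher in GFP+ cells at both ages (3.05 at P1, edgeR adjusted p = 3.6e-05, and 2.84 at P6, edgeR adjusted p = 0.0008). *Kcnj10*, a potassium channel often found beside *Aqp4* in glia, was higher in GFP+ cells at P1 (1.66, edgeR adjusted p = 0.000143) and P6 (2.29, edgeR adjusted p = 0.00169), and rose with age in GFP+ cells (1.95, edgeR adjusted p = 0.00328) and GFP- cells (1.30, edgeR adjusted p = 0.00155). *Sgk1*, a kinase induced by osmotic stress and steroids, rose in GFP+ cells (1.68, edgeR adjusted p = 0.00344) and in GFP- cells (1.79, edgeR adjusted p = 0.000528). *Lrrc8c*, a subunit of volume-regulated anion channels, was lower in GFP+ cells at P1 (-2.33, edgeR adjusted p = 4.22e-05). Without P6 GFP+ replicate 2, *Trpv4* was at 2.96 and *Kcnj10* at 2.16 between the fractions at P6. Between the ages in GFP+ cells *Kcnj10* was then at 1.82 and *Sgk1* at 1.72. The list had 2 calls higher at P6 in GFP+ cells (2.86% of all genes) and 3 in GFP- cells (5.04%), 0 lower in either (1.95% and 2.34%), and 0 in the interaction (0.988% and 0.946%), with medians of 0.29, 0.45 and 0.30, against -0.03 to 0.00 over all genes.

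In the vasopressin axis, which controls *Aqp2* in the kidney, edgeR called 0 of the 1 to 3 genes tested of 5 in each of the 5 comparisons. *Adcy6*, an adenylyl cyclase, was at 133.7 to 255.7 CPM in the group means, and the receptor *Avpr2* had 29 counts in P1 GFP+ cells and 7 to 14 in the other groups. The receptor *Avpr1a* had 2 to 6 counts in 3 groups and 60 in P6 GFP- cells (GFP- P6 against P1 log2 fold change 3.13 ± 0.62, edgeR adjusted p = 0.0162). *Avpr1a* passed the filter there only through its P6 libraries, so its direction was fixed by the filter and the p-value adds nothing to the counts. Of 6 genes of glycerol handling, all tested, 1 was called higher and 1 lower in GFP+ cells at each age (16.6% and 20.7% of all genes at P1, 7.72% and 5.19% at P6, list medians 0.04 and -0.26), and 1 of 6 is about the share of all genes at P1. With age 1 rose in GFP+ cells (2.86% of all genes), 2 rose in GFP- cells (5.04%), 0 fell in either and 0 were called in the interaction (list medians 0.44, 0.50 and 0.04). *Mgll*, which releases glycerol from monoglycerides, was higher in GFP+ cells at P1 (1.70, edgeR adjusted p = 7.21e-05) and P6 (2.21, edgeR adjusted p = 0.0018). It rose with age in GFP+ cells (2.38, edgeR adjusted p = 0.003) and GFP- cells (1.85, edgeR adjusted p = 0.000301). Without P6 GFP+ replicate 2 its P6 fraction value was 2.40 and its rise in GFP+ cells 2.57. *Gyk* (glycerol kinase) was lower in GFP+ cells at P1 (-2.15, edgeR adjusted p = 0.000141) and P6 (-1.88, edgeR adjusted p = 0.00545, and -2.20 without P6 GFP+ replicate 2). The mitochondrial dehydrogenase *Gpd2* rose in GFP- cells (1.67, edgeR adjusted p = 0.000866), and the lipase *Pnpla2* was called in none of the 5 comparisons.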

How the data were processed

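RNA-seq counts of 8 libraries were used, assigned to groups by the labelled age and fraction. The authors aligned reads with TopHat to mm9 (version 1.4.0 in the submitters' processing notes, which also name HTSeq and DESeq 1.9.2) and deposited raw counts per Ensembl gene. The counting mode and strand setting were not given in the sources used here. Reads naming no gene (23.8% to 35.3% of those listed) were left out.

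Each of 5 comparisons was fitted on its own libraries, the interaction on all 8, with edgeR 4.0.16 in R 4.3.3: filterByExpr (minimum count 10, minimum total 15), TMM, the quasi-likelihood test and Benjamini-Hochberg adjustment over all genes. *Aqp4* was not tested. Levels are CPM (counts per 1000000 of the library's gene total), so their ratios differ slightly from TMM-scaled fold changes. Exon lengths are those of the NCBIM37 annotation (Ensembl 65), in which 34391 of the 36536 genes of the files were found. The procedure was tested on simulated data. The members and lists were chosen with earlier results of these data known. All aquaporins are named, with those list genes called in the interaction or in opposite directions in the fractions, up to 4 more per list by smallest adjusted p, and the 5 genes most correlated with *Aqp4*. DESeq2 1.42.0 and other settings were tried. Figures used Python 3.11.15 and matplotlib 3.10.9. Replicates differed by more than sampling noise (chi-square per degree of freedom 16.3 to 62.7).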

Additional observations from a re-analysis of the deposited data

Results flagged for a closer look

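The fraction ratio of *Dtna* and of *Agrn*, genes of the anchoring complex of *Aqp4*, differed between P1 and P6 by the interaction test (P1 log2 ratio minus P6 log2 ratio 1.75 for *Dtna*, edgeR adjusted p = 0.00856, and 1.75 for *Agrn*, edgeR adjusted p = 0.00971). Over the alternatives the adjusted p of edgeR or DESeq2 ranged up to 0.0546 for *Dtna* and up to 0.0572 for *Agrn*.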

How the results depend on the processing

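The alternatives were DESeq2's size factors, library totals, DESeq2 in place of edgeR, no low-count filter, a fit of all 8 libraries, a block for the replicate number and leaving out each replicate. A lone library left in a group was assumed to vary like the others, so calls from such fits measure no spread within that group. The number of aquaporins called other than *Aqp4* ranged from 2 to 4 at P1 when single replicates were left out, from 0 to 3 at P6, from 0 to 3 in GFP+ cells between the ages and from 0 to 1 in the interaction. At P6 it was 2 with DESeq2's size factors, the DESeq2 test, no filter and the replicate block, and 3 with all 8 libraries. In GFP+ cells between the ages it was 1 with the DESeq2 test, all 8 libraries and the replicate block, and 2 with no filter. In the interaction it was 1 with the DESeq2 test and with no filter. The cause was not tested.

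Same-numbered replicates did not deviate together (correlations 0.03 at P1, 0.06 at P6, -0.13 in GFP+ cells and -0.32 in GFP- cells). These values cannot show whether same-numbered libraries shared a sort, which the labels do not say. The replicate block moved the calls over all genes from 2363 to 2837 at P6 and from 828 to 1079 in GFP+ cells between the ages. A crossed block, chosen after seeing the data, called 0 aquaporins in either age comparison, and 1254 genes in GFP+ cells and 3063 in GFP- cells.

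Calls over all genes numbered 6972 at P1, 2363 at P6, 828 in GFP+ cells, 1397 in GFP- cells and 372 in the interaction. With DESeq2 they were 4891 at P6, 3037 in GFP+ cells, 3011 in GFP- cells and 1405 in the interaction, with no filter 5309, 4090, 3993 and 2400, and with all 8 libraries 5157 at P6, 2361 in GFP+ cells and 769 in GFP- cells. The replicate block left 35 in the interaction. With a fold above 4 they were 3331 at P1, 1459 at P6, 441 in GFP+ cells and 350 in GFP- cells, and 242 in the interaction with a log2 difference above 2. Without single replicates they were at least 3675 at P1, and ranged over 0 to 7765 at P6, 137 to 7531 in GFP+ cells, 249 to 3029 in GFP- cells and 28 to 1407 in the interaction. Calls of the pathway list genes kept their sign in every refit and lost the threshold in 64 of 356.

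Signs turned for values near 0, given here as log2 fold changes over the fits that leave out single replicates. *Aqp5* at P1 ranged from -0.62 to 0.41. At P6, *Aqp2* ranged from -0.19 to 0.55, *Aqp7* from -0.11 to 0.80 and *Aqp9* from -1.004 to 0.056. Between the ages *Aqp7* ranged from -0.45 to 0.52 in GFP+ cells and from -0.14 to 0.21 in GFP- cells, and was -0.051 and -0.16 with library totals. In the interaction *Aqp7* ranged from -0.45 to 0.52 and *Aqp8* from -1.08 to 1.51 (the latter without P1 GFP- replicate 2). *Aqp7* there was -0.0040 with DESeq2's size factors, -0.10 with library totals and -0.030 with DESeq2. With 2 libraries a group, and under 50 counts in every library for 6 of the 10 genes, differences of low genes were not detectable unless large.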
